A study of Mus musculus with 24 samples.

Results

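Repeated and single exposure to bacterial lipopolysaccharide (LPS) were compared in bone marrow-derived macrophages of C57BL6/J mice, using 8 of the 24 ATAC-seq libraries of the series. The members were the libraries that the labels assign to C57BL6/J with either 1 or 2 doses of LPS, with 4 biological replicates of each, numbered 1, 4, 6 and 7. ATAC-seq marks open chromatin by inserting adapters into accessible DNA with the Tn5 transposase, and the deposited values are lists of peaks with a score. The LPSx2 list of replicate 6 held 1879 peaks, below the minimum of 5000, and was left out, so that 7 libraries were compared.

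Marrow came from male mice at postnatal day 28 and was cultured for 7 days to yield macrophages. Wild-type C57BL6/J is a standard inbred laboratory strain. The LPSx1 cultures received media first and later 100 ng/ml LPS for 24 hours. The LPSx2 cultures received 100 ng/ml LPS for 4 hours, were washed, rested for 20 hours in base media and were then given the same 24 hour exposure. Media cultures received no LPS and are shown beside these groups, with replicate 6 left out there too because its list held 299 peaks. The BTBR strain (BTBR T+ Itpr3tf/J) was treated with the same schedules, and its values are given only where the strains are compared. Its lists also entered the limma fits, the filters of genes and regions, and the length to which the lists of a lane were cut. Each reaction used 50000 cells. Each C57BL6/J replicate was sequenced in its own lane together with 1 BTBR replicate, so replicate and lane cannot be told apart within C57BL6/J. The labels call the replicates biological without saying what they shared, so p-values measure the spread between these libraries.

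Macrophages sense LPS through Tlr4 together with Ly96 and Cd14, and signals through Myd88 and Ticam1 activate NF-kB, AP-1 and interferon regulatory factors. After a first exposure, macrophages are known to respond differently to the next one, a state called endotoxin tolerance, in which part of the inflammatory genes are induced less and others remain inducible or are primed. Open chromatin in macrophages is laid down by lineage factors such as PU.1, C/EBP and RUNX proteins, and signal-dependent factors open further enhancers. The design asks whether an earlier short exposure leaves open chromatin in a different state after the later long one.

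No gene and no region passed the test between the schedules (limma; 327 genes, or 3.58%, and 1150 regions, or 3.99%, had an unadjusted p under 0.05). Sites present in every kept LPSx2 list and in no LPSx1 list are called gained, and those in every LPSx1 list and no kept LPSx2 list lost. Among gained sites the highest mean rank belonged to an intergenic site 165 kb from Serpine2. The sequences of 3 gained and 3 lost sites are shown, because they were the distal sites with the highest mean rank in the lists that held them. They are from the forward strand of GRCm38.p6, each the whole of the strongest peak. Capitals mark matches to the motifs spelled out further on.
gained, chr1:80026022-80026222, intergenic, nearest gene Serpine2: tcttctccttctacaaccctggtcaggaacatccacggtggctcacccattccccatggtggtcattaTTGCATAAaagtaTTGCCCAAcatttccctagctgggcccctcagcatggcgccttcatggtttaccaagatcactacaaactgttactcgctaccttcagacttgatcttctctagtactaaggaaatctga
gained, chr13:49108184-49108384, intron of Wnk2: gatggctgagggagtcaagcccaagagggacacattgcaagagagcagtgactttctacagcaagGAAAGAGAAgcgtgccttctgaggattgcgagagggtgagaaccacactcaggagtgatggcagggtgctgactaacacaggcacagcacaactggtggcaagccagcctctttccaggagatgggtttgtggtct
gained, chr11:67526626-67526826, intron of Gas7: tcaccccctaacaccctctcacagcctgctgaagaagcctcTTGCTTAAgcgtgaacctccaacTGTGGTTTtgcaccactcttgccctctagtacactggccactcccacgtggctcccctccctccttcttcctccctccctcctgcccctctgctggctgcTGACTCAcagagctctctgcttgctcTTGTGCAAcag
lost, chr15:97415619-97415819, intergenic, nearest gene Pced1b: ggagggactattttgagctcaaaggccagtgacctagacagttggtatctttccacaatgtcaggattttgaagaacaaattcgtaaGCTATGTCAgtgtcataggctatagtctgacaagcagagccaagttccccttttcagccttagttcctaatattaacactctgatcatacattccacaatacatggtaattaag
lost, chr11:110091414-110091614, coding exon of Abca8a: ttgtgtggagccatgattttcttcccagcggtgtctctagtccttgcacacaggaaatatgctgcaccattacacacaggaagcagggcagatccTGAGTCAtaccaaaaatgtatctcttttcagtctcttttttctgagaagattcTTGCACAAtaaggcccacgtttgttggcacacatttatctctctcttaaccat
lost, chr2:148719694-148719894, intron of Napb: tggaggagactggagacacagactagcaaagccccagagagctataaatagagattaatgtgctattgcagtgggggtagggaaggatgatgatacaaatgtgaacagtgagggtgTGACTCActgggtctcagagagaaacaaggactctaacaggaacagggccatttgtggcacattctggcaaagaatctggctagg
Capitals in the Serpine2 peak mark a pair of C/EBP matches, TTGCATAA from base 69 and TTGCCCAA from base 82. The Wnk2 peak holds the IRF match GAAAGAGAA from base 66. The Gas7 peak holds an AP-1 match from base 165, C/EBP matches from bases 42 and 191, and the RUNX match TGTGGTTT from base 65. In the lost peaks the capitals mark NRF2 near Pced1b, AP-1 with C/EBP in Abca8a, and AP-1 in Napb.

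Depth was known only through list length. After overlapping peaks had been merged, the LPSx1 lists of replicates 1, 4, 6 and 7 held 30799, 30945, 25333 and 33981 peaks, and the LPSx2 lists held 33184, 24734, 1877 and 43304. LPSx2 was longer in 2 of the 4 replicates and shorter in the other two. The mean log2 number of peaks was 14.9 ± 0.178 with LPSx1 and 14.0 ± 2.09 with LPSx2 (SD, n = 4 each; exact permutation p = 0.743, two-sided). This difference of -0.905 became 0.128 when the list of 1877 peaks was left out. In the LPSx2 lists of replicates 1 and 4 and the LPSx1 list of replicate 1, between 84.4% and 85.3% of deposited peaks overlapped another peak of the same list. In the other 5 lists of this comparison at most 0.213% did. Additional PCR cycles were 6 in replicates 1 and 4, 12 in replicate 7 and 10 in the LPSx1 library of replicate 6. For all further comparisons the lists of a lane were cut by score to equal length, 11349 peaks for replicate 1, 22037 for replicate 4, 16045 for replicate 6 and 13957 for replicate 7.

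The cells carried open chromatin at macrophage genes. Of 25 macrophage lineage and identity genes (such as Spi1, which encodes PU.1, and Csf1r, the receptor for the growth factor Csf1), none was without a peak in all 7 libraries. Their summed number of peaks ranged from 50 to 130 per LPSx1 library and from 40 to 133 per LPSx2 library. All 8 mast cell and basophil markers, including Kit and Cpa3, had 0 peaks in the 7 libraries, as did 9 of 10 B cell markers, including Pax5. Of 16 T and NK cell markers, 10 were at 0, including Cd3e, Cd4 and Cd8a. Others, among them Cd2, Gata3 and Klrb1c, had peaks in each of the 7 libraries. The list summed to 7 to 9 peaks with LPSx1 and 6 to 10 with LPSx2. Of 12 neutrophil markers, 8 were at 0, including Elane and Mpo, and the list summed to 1 to 7 and 1 to 8 peaks. Of 10 erythroid and megakaryocyte markers 6 were at 0, including Gata1, and the sums were 0 to 1 and 0 to 2. Of 12 stromal markers 7 were at 0, including Col1a1 and Pdgfra, and the sums were 2 to 5 and 3 to 7. Dendritic cell markers, some of which macrophages share, summed to 8 to 21 peaks under both schedules.

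The 7 lists were first compared as wholes, each cut to 24734 peaks. The percent shared is the number of regions with a peak in both lists over those with a peak in either. An LPSx1 and an LPSx2 list of the same replicate number shared 61.4% to 66.7% of regions, with a median of 65.8%. LPSx1 lists shared 51.1% to 62.5% with each other (median 54.0%, 6 pairs), and LPSx2 lists shared 55.7% to 67.6% (median 56.0%, 3 pairs). Lists differing in both schedule and replicate number shared 51.3% to 64.4% (median 55.4%, 9 pairs). Pairs with different schedules (51.3% to 66.7%) lay within the range of pairs with the same schedule (51.1% to 67.6%). Only pairs with different schedules can share a replicate number, and both ranges mix replicates. These ranges therefore cannot decide whether schedule separated the lists. Lists of replicates 1 and 4 shared more with each other, as in 67.6% for the LPSx2 pair, than with replicate 7, where the LPSx2 list of replicate 1 reached 55.7%. The LPSx1 lists of replicates 6 and 7 shared 62.4% with each other. This grouping follows lanes 1 and 2 against 3 and 4 and the number of PCR cycles, which cannot be told apart. The lists in which most deposited peaks overlapped another also lay in replicates 1 and 4. They were both lists of replicate 1 and the LPSx2 list of replicate 4, so this trait was uneven between schedules. Its part in the sharing was not tested.

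**Figure D1:**
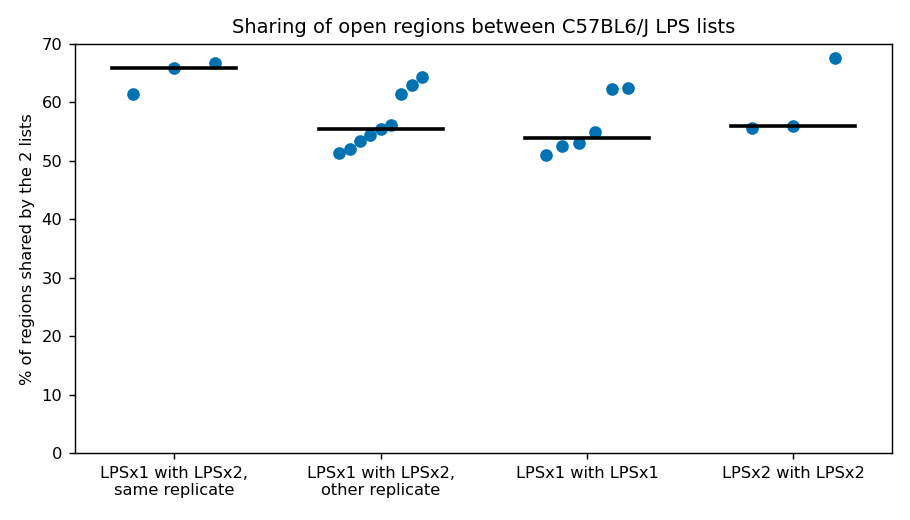
Percent of open regions shared by each pair of the 7 C57BL6/J LPS lists (y axis), each list cut to 24734 peaks, by kind of pair (x axis). Each point is a pair of lists and each line the median of its kind; the medians are 65.8% for the same replicate and 54.0% to 56.0% for the other kinds.

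In the gene comparison, each peak was assigned to the nearest protein-coding start site within 100 kb, and the number of peaks per gene was tested with limma in all 22 kept libraries with lane as a covariate. Of 9137 genes tested, 0 passed at a Benjamini-Hochberg adjusted p under 0.05, which is 0% (smallest adjusted p = 0.597). At an unadjusted p under 0.05 there were 327 genes, or 3.58%, with 153 higher and 174 lower after LPSx2. The median absolute difference was 0.271 peaks and the median standard error 0.398 peaks. In the same model and against the same 3 media libraries, 125 genes passed upward and 87 downward with LPSx1 and 169 and 120 with LPSx2. These contrasts share their media libraries, and their counts are not a comparison of the schedules. No gene named below passed this test, and each is given by its values, with differences from limma as LPSx2 minus LPSx1, in peaks, ± standard error.

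Among genes with more peaks after LPSx2 in each of the 3 complete pairs were Cd38 and Il12a. Cd38 (chr5:43868553-43912375) encodes an ectoenzyme that consumes NAD and is carried by activated immune cells. It held 3, 2, 1 and 2 peaks in the LPSx1 libraries of replicates 1, 4, 6 and 7 and 5, 5 and 3 in the LPSx2 libraries of replicates 1, 4 and 7, against 0, 1 and 0 in media. The LPSx2 value of replicate 7 equalled the highest LPSx1 value, so the groups touched. The difference was 2.02 ± 0.543 peaks (95% interval 0.852 to 3.19, limma unadjusted p = 0.00241, adjusted p = 1). When the lists were not cut to equal length the direction turned, with a difference of -0.333 peaks.

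Il12a (chr3:68690644-68698547), the p35 subunit of interleukin-12 and interleukin-35, had 0 peaks in the 3 media libraries. It held 1, 1, 2 and 1 peaks with LPSx1 and 2, 3 and 3 with LPSx2, a difference of 1.60 ± 0.508 (limma adjusted p = 1). The LPSx1 library of replicate 6 equalled the lowest LPSx2 library. Zyx, which encodes the focal adhesion protein zyxin, held 3, 4, 4 and 2 peaks with LPSx1 and 4, 5 and 4 with LPSx2 (1.15 ± 0.370). Mcemp1, a membrane protein of mast cells and myeloid cells, held 0, 1, 1 and 0 with LPSx1 and 2, 2 and 1 with LPSx2 (1.12 ± 0.343). In both genes the groups touched, and for Zyx the difference was -0.271 when the lists were not cut to equal length.

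The smallest unadjusted p among these genes belonged to Arhgap31 (chr16:38598340-38713274), a GTPase-activating protein. It held 1 peak in all 4 LPSx1 libraries and 2, 3 and 2 with LPSx2, so the groups did not overlap (1.31 ± 0.320, limma unadjusted p = 0.00114, adjusted p = 1). Media libraries held 1, 3 and 2 peaks there. Pole4, an accessory subunit of DNA polymerase epsilon, was at 1, 2, 2 and 3 against 3, 3 and 4 peaks (1.48 ± 0.383), but -0.583 peaks with uncut lists. Rev1, a polymerase that copies past DNA lesions, held 0, 0, 1 and 1 against 1, 1 and 2 (0.917 ± 0.259). The other genes chosen by the same rule were the acyl-CoA thioesterase gene Acot7, the zinc finger gene Zfp46, Mfsd7a, Hddc2 and AI464131, with differences of 0.938 to 1.71 peaks. Of these, Mfsd7a turned to -0.667 with uncut lists and Acot7 to -0.417 in the stronger 50% of each list.

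Among genes with fewer peaks after LPSx2 in each pair, Smu1 and Peli2 had the smallest p. Smu1 (chr4:40736542-40757923), a spliceosome component, held 1, 2, 1 and 1 peaks with LPSx1 and 0 in all 3 LPSx2 libraries, a difference of -1.42 ± 0.259 (95% interval -1.97 to -0.859, limma unadjusted p = 9.26e-05, adjusted p = 0.597). Media libraries held 1, 2 and 1 peaks, as many as the LPSx1 libraries of the same replicates. Peli2 (chr14:48120823-48281575) encodes an E3 ubiquitin ligase of the Pellino family that acts with IRAK kinases in Toll-like receptor signalling. It held 2, 4, 4 and 4 peaks with LPSx1, 1, 2 and 2 with LPSx2 and 1, 2 and 3 in media (-1.69 ± 0.320, limma adjusted p = 0.597). Its groups touched at 2 peaks, and the difference was 0 when only the 7 lists, each cut to 24734 peaks, were fitted.

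Nfkbib, H2-M3 and Usp25 were chosen by the same rule. Nfkbib, which encodes the NF-kB inhibitor IkB-beta, held 1, 2, 1 and 1 peaks with LPSx1 and 0, 1 and 0 with LPSx2 (-1.12 ± 0.321). H2-M3, a class Ib MHC molecule that presents formylated bacterial peptides, held 2 in every LPSx1 library and 0, 1 and 1 with LPSx2 (-1.23 ± 0.342), with 1, 1 and 0 in media. The deubiquitinase gene Usp25 held 4, 6, 5 and 5 against 3, 4 and 4 (-1.38 ± 0.392). Of these 3 genes, the groups did not overlap in H2-M3, and the ranges touched in the other two. When only the 7 lists were fitted, each cut to 24734 peaks, Usp25 was at 0.333.

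The other genes chosen by this rule cover varied functions. Napb, an adaptor of SNARE disassembly, held 2 peaks in all 4 LPSx1 libraries and 1 in all LPSx2 and media libraries (-0.979 ± 0.240). Abca8a, a lipid transporter of the ATP-binding cassette family, held 2, 2, 3 and 2 against 1 in every LPSx2 library (-1.17 ± 0.278). Ythdf2, a reader of methylated adenosine in RNA, held 1 in all LPSx1 libraries and 0 in all LPSx2 libraries (-0.958 ± 0.271). For these 3 genes the groups did not overlap, and each difference amounts to about 1 peak. Uprt, Zbtb11, Rsbn1l and the cytochrome c oxidase subunit gene Cox5a gave differences of -1.46 to -0.917, of which Uprt turned to 0.333 in the 7 lists cut to 24734 peaks.

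**Figure D2:**
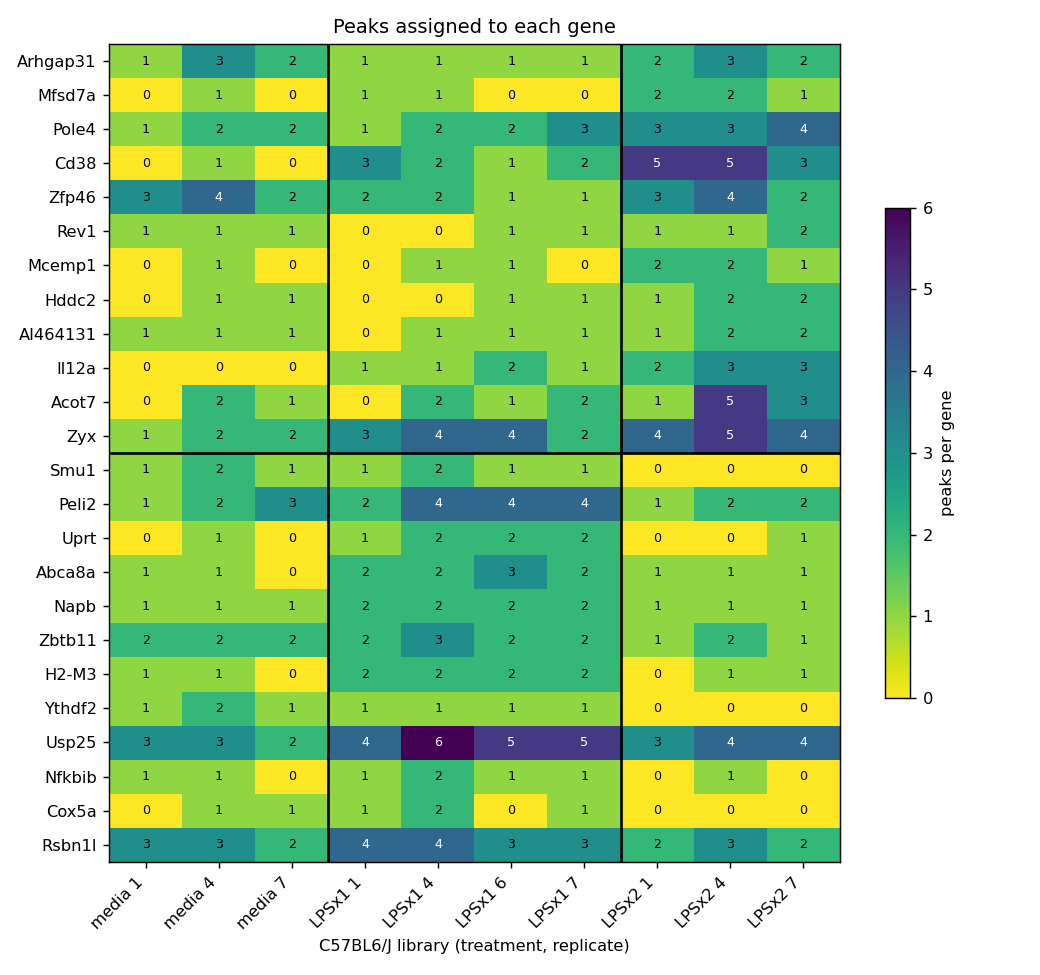
Number of peaks assigned to each of 24 genes (rows) in the 10 kept C57BL6/J libraries (columns, by treatment and replicate), with the number in each cell and as colour. The 12 genes above the horizontal line had more and the 12 below fewer peaks with LPSx2 than with LPSx1 in each of the 3 complete pairs; Smu1 is at 0 in all 3 LPSx2 libraries, and none of the 24 genes passed the test.

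Genes whose LPSx1 and LPSx2 libraries did not overlap were few. They were 6 of 9137 (0.0657%) with LPSx2 higher and 9 of 9137 (0.0985%) with LPSx2 lower. The higher ones outside the rule above were Igfbp7, Lig1, Myl3, Plcl1 and Vsir, and the lower ones Dtnb, Hsf1, Phip and Rfx3. They are named because they made up this count, after their values were seen. Vsir, the gene of the immune checkpoint protein VISTA, held 1, 2, 2 and 1 peaks with LPSx1 and 3, 5 and 3 with LPSx2, against 3, 6 and 4 in media. Hsf1, the master factor of the heat shock response, held 1 in each LPSx1 library and 0 in each LPSx2 library. Lig1, a DNA ligase of replication, held 1 in each LPSx1 and 2 in each LPSx2 library.

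The largest differences were not the most regular ones. Mroh2a had the largest, 10.6 ± 10.4 peaks, which rested on replicate 4 with 37 peaks under LPSx1 and 55 under LPSx2. The other LPSx1 libraries of Mroh2a held 1, 5 and 2 peaks and the other LPSx2 libraries 1 and 2. Mroh2a is named because it was the extreme, after its values were seen. In all, 37 genes differed by at least 2 peaks in either direction, and 133 genes were higher and 104 lower in all 3 pairs.

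The gene lists were described by counts and medians beside all genes tested, where 4008 differences were above 0, 4365 below and the median was 0. These differences are adjusted for lane, so a gene can count as above or below without any change in its C57BL6/J peaks. Ifi44 had no peak in any kept C57BL6/J library and was at -0.146. Fasn had none in the 7 libraries and was at 0.25. No member of any of the 23 lists passed (limma), and the members at an unadjusted p under 0.05 are counted with their lists. The direction of some members turned under another way of cutting the lists. Of 16 tested inflammatory cytokine genes 8 were above and 8 below, with a median of 0.0521 peaks, and Il12a alone was at an unadjusted p under 0.05. Il1b, which encodes interleukin-1 beta, held 11, 13, 1 and 3 peaks with LPSx1 and 11, 18 and 0 with LPSx2 (1.94 ± 2.44, but -2.40 with uncut lists). Its values followed the replicate, with the highest numbers in replicates 1 and 4 under both schedules. Of 10 tested chemokine genes 4 were above and 6 below (median -0.219), and Ccl2, which attracts monocytes, held 3, 6, 6 and 3 against 3, 3 and 3 (-1.65 ± 0.881, but 0.146 in the stronger 50% of each list). For Cxcl1, a neutrophil attractant, the values were 3, 2, 1 and 1 against 3, 4 and 1 (0.5 ± 0.587).

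Among 20 tested interferon-stimulated genes 7 were above 0 and 12 below, with a median of -0.208. Oas3, an antiviral sensor of double-stranded RNA, differed by -0.729 ± 0.589. Antimicrobial and acute-phase genes gave 6 above and 5 below among 11 (median 0.0208). Of these Lyz2, which encodes macrophage lysozyme, held 6, 6, 4 and 4 against 5, 6 and 1 (-1.40 ± 0.590, but 0.0833 in the stronger 50%). Fpr2, a receptor for formylated peptides, differed by 0.750 ± 0.984 and by -0.312 with uncut lists. Lyz2 and Hp, the haptoglobin gene (0.583 ± 0.249), were at an unadjusted p under 0.05.

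Genes of LPS sensing gave 7 above and 9 below among 17 tested (median -0.0417). Tbk1, the kinase that activates Irf3, held 2, 5, 2 and 2 against 1, 3 and 1 peaks (-1.23 ± 0.513), lower in each pair and the one member at an unadjusted p under 0.05. Irak4, a kinase downstream of Myd88, differed by -0.750 ± 0.505. Of 30 tested tolerance and feedback regulators 13 were above and 17 below (median -0.115). Irak3, an inactive kinase that restrains Toll-like receptor signalling and is a known marker of tolerance, held 7, 9, 2 and 3 against 3, 8 and 1 (-1.58 ± 1.24). Tnip1, a partner of the ubiquitin-editing enzyme A20, held 5, 4, 3 and 4 against 6, 9 and 2 (1.54 ± 1.30, but -0.521 in the stronger 50%). Cyld, a deubiquitinase that restrains NF-kB, was the member at an unadjusted p under 0.05, with 1 peak in each LPSx1 library and 1, 2 and 2 with LPSx2 (0.604 ± 0.255). The overlap between schedules was complete for Tnip1, whose lowest and highest values both fell in LPSx2.

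AP-1 and ATF factor genes were split, with 8 above and 7 below among 16 (median 0.0313). Fosl2, an AP-1 subunit, differed by -1.33 ± 0.863 and Bach1, a repressor of antioxidant genes, by 1.02 ± 1.14, while with uncut lists they were at 0.542 and -0.708. Macrophage lineage genes were split 12 to 12 among 24. Cebpb, one of the C/EBP proteins active in inflamed macrophages, held 10, 17, 5 and 8 against 12, 22 and 4 peaks (1.77 ± 2.46, but -1.17 with uncut lists). Ctsd, a lysosomal protease and the one lineage gene at an unadjusted p under 0.05, held 5, 8, 6 and 6 against 4, 7 and 4 (-1.77 ± 0.794). Chromatin modifier genes gave 10 above and 9 below among 20 (median 0.0208). Of these Tet2, a DNA demethylase, held 10, 9, 9 and 8 peaks against 9, 15 and 12 (3.08 ± 1.60, but -0.208 for peaks within 25 kb), and Tet3 differed by -1.67 ± 0.938.

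Metabolic lists lay to either side. Of 19 glycolysis and hypoxia genes, all tested, 13 were above and 6 below (median 0.188), with 2 at an unadjusted p under 0.05. Pfkfb3, which makes the activator of the glycolytic enzyme phosphofructokinase, held 10, 12, 7 and 3 peaks with LPSx1 and 10, 18 and 9 with LPSx2 (3.77 ± 1.62, limma unadjusted p = 0.0359). Egln3, a prolyl hydroxylase that marks Hif1a for destruction, held 1, 4, 1 and 2 against 3, 5 and 3 (1.54 ± 0.625). Pfkfb3 was equal in replicate 1 and higher in the other pairs but at -0.396 with uncut lists, and Egln3 was higher in each pair. Nitric oxide, arginine and itaconate genes gave 10 above and 4 below among 14 (median 0.146). Acod1, which makes itaconate, held 6, 8, 2 and 4 against 6, 12 and 2 (1.40 ± 1.38), and the cystine importer gene Slc7a11 differed by -1.06 ± 0.784. In the stronger 50% of each list these were at -0.562 and 1.06. Cholesterol efflux and LXR target genes gave 6 above and 11 below among 17 (median -0.250), with Npc2, a lysosomal cholesterol carrier, at -1.56 ± 0.715 and Mylip, which degrades the LDL receptor, at 0.750 ± 0.303. These were the members at an unadjusted p under 0.05.

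Alternative activation genes gave 7 above and 3 below among 10 (median 0.219), with the interleukin-4 receptor gene Il4ra at 1.62 ± 0.808 and Pparg at 0.5 ± 0.909 but at -1.56 with uncut lists. Antigen presentation and costimulation genes gave 4 above and 7 below among 11 (median -0.146). In that list Cd274, which encodes PD-L1, differed by -0.562 ± 0.653 and Cd86 by 0.479 ± 0.530, with Cd86 at -0.292 in the stronger 50%. Class II genes H2-Aa, H2-Ab1 and Cd74 and their activator Ciita had no peak in the 7 libraries. Prostaglandin and cyclic AMP genes gave 8 above and 9 below among 17 (median -0.0208). Ptgs2, the inducible cyclooxygenase, held 4, 6, 7 and 4 against 5, 8 and 6 (1.52 ± 0.744, but -0.0625 in the stronger 50%), and the phosphodiesterase gene Pde4d differed by 1.21 ± 2.66 and by -6.44 with uncut lists. Members at an unadjusted p under 0.05 were Ptges, the inducible prostaglandin E synthase (0.917 ± 0.408), and Ptger4, a prostaglandin E receptor (0.646 ± 0.295). Housekeeping genes gave 5 above and 10 below among 16 (median -0.219), with Actb at -1.94 ± 1.06 and Ywhaz at -0.646 ± 0.665.

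Marker genes of other cell types that were tested gave differences between -0.812 and 0.771 peaks. The dendritic cell markers Flt3 and Tcf4 were at -0.812 ± 0.349 and 0.771 ± 0.870, with 6 of 8 list members above 0 and a median of 0.406. The T cell markers Bcl11b and Cd2 were at 0.333 ± 0.534 and 0.167 ± 0.475, and the B cell adaptor gene Blnk at -0.542 ± 0.571. The neutrophil markers Csf3r and Gfi1 were at 0.604 ± 0.493 and 0.229 ± 0.664, the stromal markers Acta2 and Pdgfrb at 0.458 ± 0.297 and 0.125 ± 0.516, and the transferrin receptor gene Tfrc at -0.438 ± 0.295. None of these passed the limma test, and Flt3 alone was at an unadjusted p under 0.05. Flt3 turned to 0.333 in the 7 lists cut to 24734 peaks, and with uncut lists Csf3r turned to -0.542, Gfi1 to -0.167 and Pdgfrb to -0.0208.

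Regions were compared by the percentile rank of their best peak within each list, where 100 is the strongest peak of a list and 0 means no peak. Lists of different replicates were cut to different lengths, so a region can be missing from a shorter list and present in a longer one. Of 28795 regions with a peak in at least 3 kept libraries, 0 passed in limma, or 0% (smallest adjusted p = 0.249), and 1150, or 3.99%, had an unadjusted p under 0.05. Of 29897 regions detected in any of the 7 libraries, 6156 (20.6%) were in all 7 and 8326 (27.8%) in a single one. Gained regions, with a peak in 3 of 3 LPSx2 and 0 of 4 LPSx1 lists, numbered 30, or 0.1%. Lost regions, with a peak in 4 of 4 LPSx1 and 0 of 3 LPSx2 lists, numbered 12, or 0.0401%. The order turned to 9 gained and 21 lost when overlapping peaks were not merged, so the larger number of gained regions depended on merging. Leaving out replicate 1, 4, 6 or 7 gave 186, 129, 47 and 285 gained and 168, 116, 25 and 96 lost regions. Fewer lists loosen both rules, so these counts could not fall. These sets were chosen by their detection and are described without a test.

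The gained region at chr1:80025864-80026223, whose peak with 2 C/EBP matches is shown above, is the one with the smallest adjusted p in the rank test. It ranked at the 63.2, 60.7 and 56.7 percentile in the LPSx2 lists of replicates 1, 4 and 7 and was at 0 in all 4 LPSx1 and all 3 media lists (difference 59.9 ± 11.4 percentile points, limma adjusted p = 0.249). In BTBR it was detected in 2 of 4 lists under each schedule. Serpine2, the nearest gene, encodes a secreted inhibitor of serine proteases. The gained region in Wnk2, a kinase gene, ranked at 63.2, 54.7 and 27.3. The Gas7 region ranked at 33.6, 51.4 and 46.7, and was also present at 29.4 in the media list of replicate 4. The rank of the Wnk2 region was lowest in replicate 7 and that of the Gas7 region in replicate 1.

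Further gained regions lay in introns of Chmp3 (chr6:71555601-71555871), of Clec16a (chr16:10584953-10585280) and of Ap3s2, nearest to Anpep (chr7:79881163-79881442). Chmp3 encodes a subunit of the ESCRT-III membrane-remodelling complex, and Anpep encodes the aminopeptidase CD13 of myeloid cells. Their ranks were 44.5, 63.4 and 15.5 for Chmp3, 47.5, 54.7 and 20.6 for Clec16a, and 14.8, 72 and 35.6 for Anpep. An intergenic region 15.7 kb from Cd40lg (chrX:57196348-57196631) ranked at 33.6, 57.8 and 25.1. A region 699 bp from a start site of Mbnl2, a splicing regulator (chr14:120379822-120380058), ranked at 9.33, 48.0 and 49.7. These 5 regions were absent from every LPSx1 and media list, and replicate 4 gave the highest rank in 4 of them.

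Lost regions were mostly promoters. They lay at the start sites of Lztfl1 (chr9:123717458-123717811), Fam207a (chr10:77515705-77515996), Clec16a (chr16:10545141-10545457), Kpna1 (chr16:35983157-35983450), Cog8 with Nip7 (chr8:107056573-107056961) and Tra2b (chr16:22265851-22266165). A further promoter region lay in an intron of Hnrnpab, 825 bp from a start site (chr11:51605874-51606171), which like Tra2b encodes an RNA-binding protein. Kpna1 encodes an importin and Cog8 a subunit of a Golgi tethering complex. The Lztfl1 region ranked at 24.1, 77.6, 28.6 and 51.5 in the LPSx1 lists of replicates 1, 4, 6 and 7 and at 64.4, 85.5 and 66.0 in media (difference -47.1 ± 13.7 percentile points, limma adjusted p = 0.678). The Hnrnpab region ranked at 29.0, 80.9, 36.5 and 34.1 with LPSx1 (-49.3 ± 14.0, adjusted p = 0.677). The distal lost region near Pced1b (chr15:97415583-97415819) ranked at 12.9, 43.1, 63.2 and 40.7 and was absent from media. Clec16a, which encodes a regulator of autophagy, thus had a lost promoter region and a gained intronic one, 15.4 kb from the nearest start site.

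As sets, 4 of 30 gained regions (13.3%) and 8 of 12 lost regions (66.7%) lay within 1 kb of a start site, against 33.5% of the 29855 other detected regions. Regions found in a single list (27.8% of all detected) are among those others. They are thus not a matched background for promoter or motif shares. In media, 20 of the gained regions were absent from all 3 lists and 3 were present in all 3. Of the lost regions 5 were absent from media and 6 were present in all 3 media lists. Motifs were counted in the strongest peak of distal regions, as described in the next paragraphs. C/EBP matches were in 9 of 26 distal gained regions (34.6%), against 17.6% of the other distal regions, RUNX in 4 (15.4% against 3.96%) and AP-1 in 7 (26.9% against 25.2%). CRE was in 1 (3.85% against 0.620%). Lower shares were those of PU.1 in 1 (3.85% against 12.0%) and NRF2 in 2 (7.69% against 14.0%). NF-kB and IRF were lower too, each in 2 (7.69% against 9.89% and 8.38%), and STAT, SP/KLF and MiT/TFE were in 0. Of the 4 distal lost regions, 2 held AP-1, 1 C/EBP and 1 NRF2. These counts are small and were not tested. A region outside the naming rule, singled out after its values were seen, covers the start of Tlr2 (chr3:83841283-83841836), the receptor for bacterial lipoproteins. It was at 0 in all LPSx1 lists and ranked at 20.0, 35.7 and 9.80 with LPSx2, but also at 58.5 and 59.5 in the media lists of replicates 4 and 7.

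**Figure D3:**
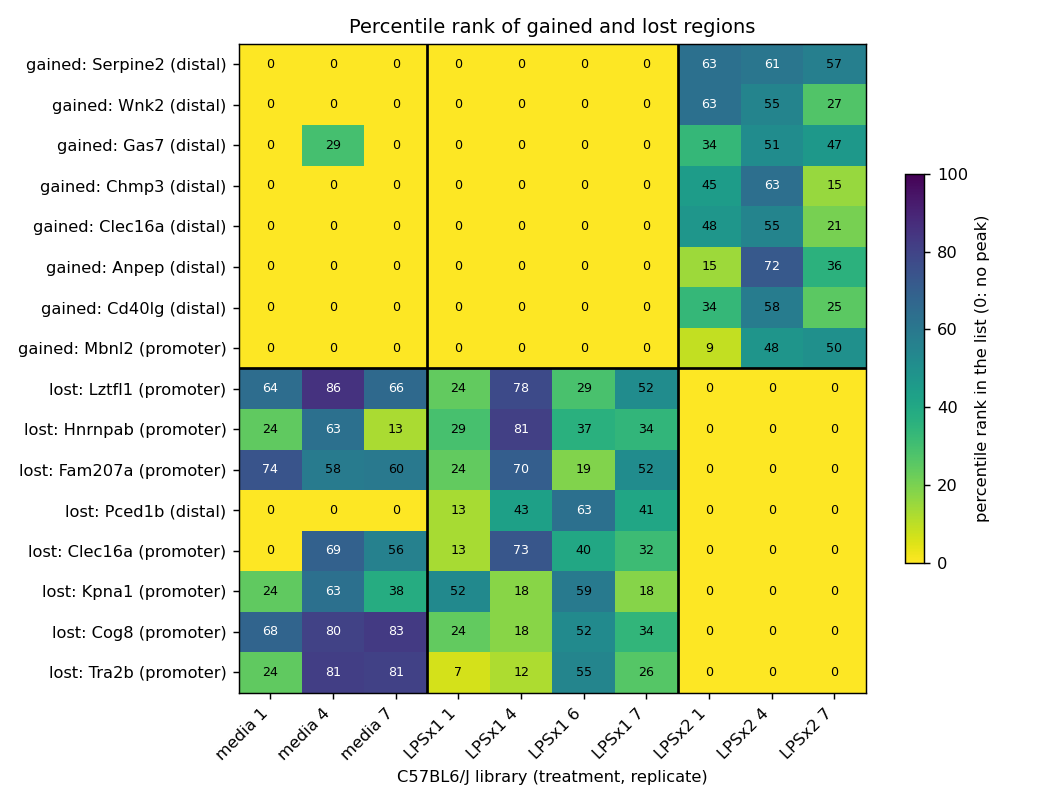
Percentile rank within its list of each of 8 gained and 8 lost regions (rows, by nearest gene) in the 10 kept C57BL6/J libraries (columns, by treatment and replicate); 0 means no peak. The region near Serpine2 ranked between 56.7 and 63.2 in LPSx2 and at 0 elsewhere, while each of the 7 lost promoter regions shown was present in at least 2 media lists.

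The change between schedules was compared with that in BTBR macrophages on the same schedules. The strain difference of the LPSx2 minus LPSx1 change passed in 0 of 9137 genes (0%, limma), with 282 at an unadjusted p under 0.05. Without the lists with most peaks in duplicate, 33 genes passed, all with a residual spread of 0. Of the 12 named genes with more peaks after LPSx2 in C57BL6/J, the BTBR means were higher with LPSx2 in 8, lower in 2 and equal in 2. Of the 12 with fewer, they were lower in 8, higher in 3 and equal in 1. Mfsd7a, Pole4, Il12a and Acot7 each differed by 0.75 peaks in BTBR and Smu1 by -0.5, in the direction seen in C57BL6/J. For Cd38 the BTBR libraries averaged 2.50 peaks with LPSx1 and 2.00 with LPSx2, and the strain difference of the change was 2.52 ± 0.735 (unadjusted p = 0.00422, adjusted p = 1). For Peli2 the BTBR means were 1.75 and 1.5, a strain difference of -1.44 ± 0.433. For Nfkbib they were 0.5 and 1.00, a strain difference of -1.62 ± 0.434. None of these passed, which does not show that the strains respond alike. Cd38, Peli2 and Nfkbib were chosen by their C57BL6/J difference, which is itself a part of the strain difference. That choice enlarges their strain differences and lowers the unadjusted p, so these values are no evidence of a strain difference. Of the 30 gained regions, 9 were detected in more BTBR LPSx2 than LPSx1 lists, 7 in fewer and 14 in as many. Of the 12 lost regions, 3 were in more, 5 in fewer and 4 in as many. The shares over all genes and all regions are not given beside these counts, so the counts do not show agreement between strains.

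Regions that either schedule opened or closed were then followed into the other schedule, a comparison added after other results had been seen. A region counted as opened by LPSx1 when it had a peak in the LPSx1 lists of replicates 1, 4 and 7 and in none of their media lists, which chose 787 regions. Of these, 82.8%, 96.3% and 83.2% had a peak in the LPSx2 lists of replicates 1, 4 and 7 (exact Clopper-Pearson 95% intervals 80.0% to 85.4%, 94.8% to 97.5% and 80.4% to 85.8%, covering counting error only). The LPSx1 list of replicate 6, which had no part in the choice, held 82.0% (79.1% to 84.6%). The LPSx2 lists come from the replicates and lanes on which the regions were chosen and replicate 6 does not, so schedule and replicate cannot be told apart in these values. Of 1036 regions opened by LPSx2 by the same rule, 68.4%, 92.6% and 75.0% had a peak in the LPSx1 lists of the same replicates and 79.2% in that of replicate 6.

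Closed regions were followed in the same way. Of 558 regions present in the 3 media lists and in none of these LPSx1 lists, 3.94%, 29.0% and 10.4% had a peak in the LPSx2 lists of replicates 1, 4 and 7, and 16.8% in the LPSx1 list of replicate 6. Of 710 regions closed by LPSx2, 5.21%, 32.0% and 28.3% had a peak in the LPSx1 lists and 22.0% in that of replicate 6. The LPSx1 list of replicate 6 lay between the lowest and the highest list of either set. Replicate 4, whose lists were cut at 22037 peaks, had the highest detection in each set, and the part of list length in this was not tested. The sets share media libraries with each other and are described without a test.

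**Figure D4:**
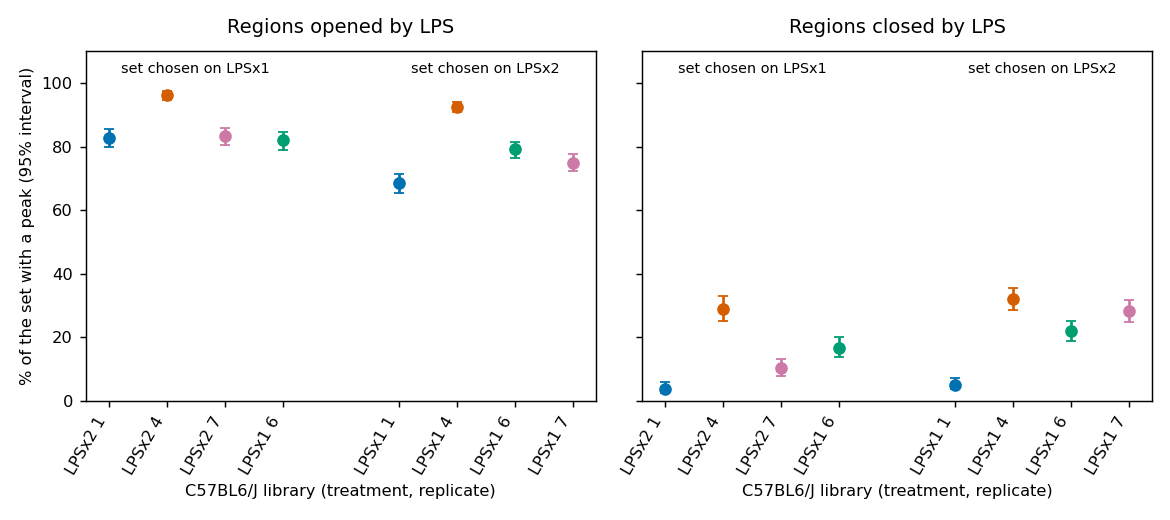
Percent of the regions opened (left) or closed (right) by one schedule that had a peak in each C57BL6/J library of the other schedule and in the LPSx1 library of replicate 6 (y axis; bars are exact 95% intervals for counting error; x axis, library by treatment and replicate, coloured by replicate). Regions opened by LPSx1 were detected at 82.8% to 96.3% in LPSx2 lists and at 82.0% in the LPSx1 list of replicate 6.

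The share of peaks within 1 kb of a start site was lower with LPSx2 in each pair. It was 38.7%, 34.8%, 44.1% and 50.7% in the LPSx1 lists of replicates 1, 4, 6 and 7 and 36.1%, 33.7% and 46.4% in the LPSx2 lists of replicates 1, 4 and 7. The means were 42.1% ± 6.92 (SD, n = 4) and 38.7% ± 6.76 (SD, n = 3), and the difference did not exceed the spread between replicates (exact permutation p = 0.543, two-sided). An exact permutation of schedules within the 3 pairs gave p = 0.25, the lowest value possible there. Media lists held 53.3%, 46.0% and 66.1% in replicates 1, 4 and 7, above both LPS lists of the same replicate.

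Motif shares were taken over distal peaks, those farther than 1 kb from a start site, on both strands. The motifs were AP-1 (TGACTCA or TGAGTCA), CRE (TGACGTCA), C/EBP (TTGCNNAA), PU.1 (GAGGAAGT), RUNX (TGTGGTTT), IRF (GAAANNGAA), STAT (TTCCNGGAA), SP/KLF (GGGGCGGGG), NRF2 (TGACNNNGC) and MiT/TFE (CACGTGAC). NF-kB was GGGNNNNNC with A or G at the fourth base, A or T at the sixth, and C or T at the seventh and the eighth. The AP-1 match TGACTCA followed by GC is also an NRF2 match. A match describes letters only and does not show that a factor was bound.

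RUNX matches had the smallest p of the 11 motifs but did not pass after adjustment. They were in 3.97%, 3.90%, 3.84% and 3.97% of distal peaks in the LPSx1 lists and in 4.37%, 4.15% and 4.53% in the LPSx2 lists, so the groups did not overlap. RUNX proteins, chiefly Runx1 in this lineage, act with PU.1 in myeloid cells. The means were 3.92% ± 0.0627 (SD, n = 4) and 4.35% ± 0.194 (SD, n = 3), with p = 0.0286 by exact permutation, which is the lowest value 35 arrangements allow. After adjustment over the 11 motifs this was an adjusted p of 0.314, the lowest that 1 motif alone can reach here. The adjusted test could therefore not pass a single motif, and it cannot decide whether the RUNX share differed. Under the alternatives the difference lay between 0.197 and 0.527 percentage points with adjusted p from 0.314 to 1. Media lists lay at 5.02%, 4.57% and 4.52%, and the LPSx2 shares lay between LPSx1 and media in replicates 1 and 4. In replicate 7 the LPSx2 share was just above that of media.

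AP-1 matches, the motif of Fos and Jun dimers, were in 29.3%, 27.1%, 27.6% and 30.5% of distal peaks with LPSx1 and 28.7%, 26.2% and 28.7% with LPSx2. They were lower in each pair, with a mean difference of -0.745 percentage points (exact permutation adjusted p = 0.911), but 0.445 without merging and 0.484 over all peaks. PU.1 matches were lower in each pair too, with the sign turned under the same alternatives (0.175 and 0.0400), at 13.1% ± 0.421 (SD, n = 4) against 12.7% ± 0.780 (SD, n = 3), as were MiT/TFE matches (0.967% against 0.804%) and SP/KLF matches (1.32% against 1.17%). C/EBP matches were split, higher with LPSx2 in replicate 7 at 19.3% against 17.3% and lower in replicates 1 and 4, and NF-kB matches averaged 10.2% against 10.3%. Means for the other motifs were IRF (8.05% against 7.86%), NRF2 (14.9% against 14.7%), STAT (0.693% against 0.744%) and CRE (0.691% against 0.667%). No motif passed after adjustment, which 1 motif alone could not do with these numbers of libraries.

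**Figure D5:**
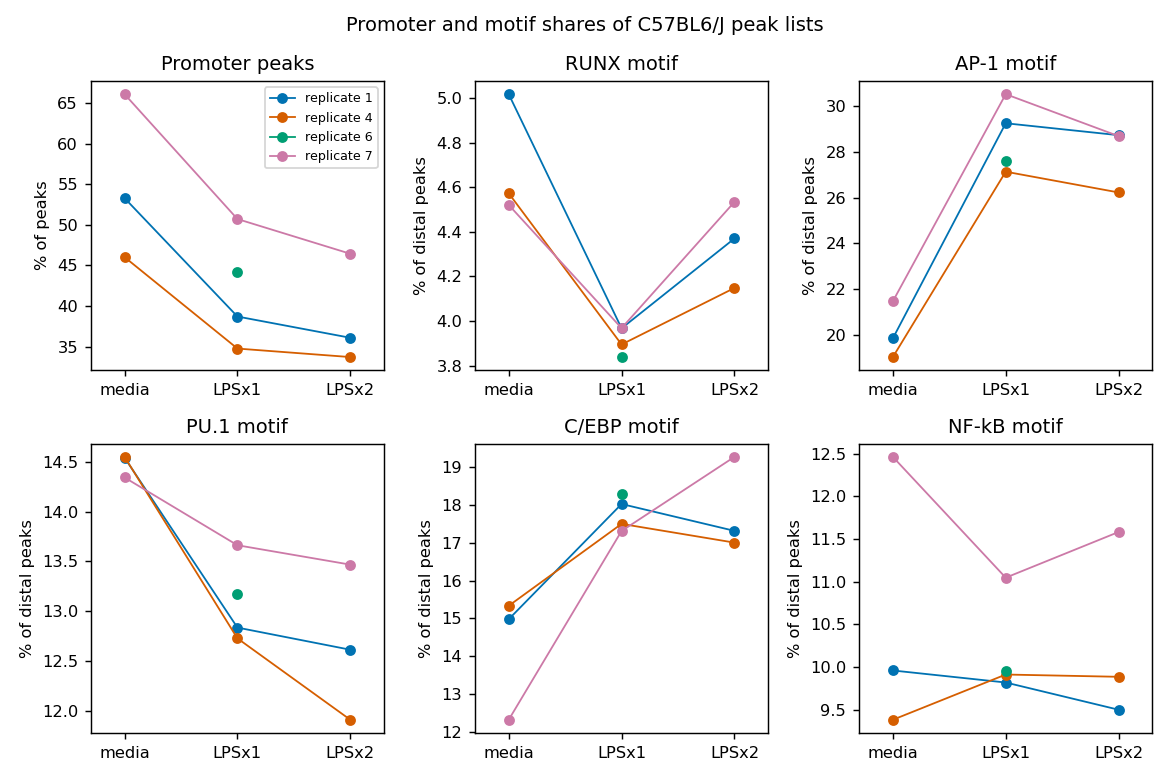
Share of peaks near start sites and of distal peaks with each of 5 motifs (y axes, percent, not starting at 0) in the C57BL6/J lists by treatment (x axes); points are libraries and lines join a replicate. The RUNX share was 3.84% to 3.97% in the 4 LPSx1 lists and 4.15% to 4.53% in the 3 LPSx2 lists.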

How the data were processed

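ATAC-seq peaks were deposited as 1 list per library in mm10 coordinates, with a score that the authors gave each peak and whose scale is not given in the sources used here. The submitters' processing notes name Trimmomatic 0.38, SAMtools 1.8, Picard 2.18.4, HOMER and bedtools. Peaks that overlapped within a list were merged, keeping the best score, and 22 lists of at least 5000 peaks were kept. They were cut by score to the shortest list of their lane. Peaks were assigned to the nearest GENCODE vM21 protein-coding start site. Genes averaging 0.5 or more peaks, and regions found in at least 3 libraries, were tested with limma 3.58.1 (trend and robust, 6 groups and lane) in R 4.3.3, with Benjamini-Hochberg adjustment at 0.05. Shares were compared by exact permutation. Sequences are from GRCm38.p6. The gene test was tried on simulated peak numbers, with 50 genes of at least 2 peaks on average changed by each factor. The numbers were drawn from a Poisson distribution, for LPS libraries around the mean of a gene in a strain and lane. A factor of 4 passed in 34 genes, 2 in 2, 0.25 in 1 and 0.5 in 0. A gene that did not pass is therefore not shown to be unchanged.

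Named genes were the 12 of smallest unadjusted p in each direction with that sign in all 3 pairs, since none passed, and the 2 tested members of each list with the largest absolute difference, of which 1 is not reported here. Named regions were the 8 gained and 8 lost of highest mean rank, with chromosome 18 left out. The libraries compared and the gene lists were chosen with earlier results of these data known. Deviations from group means correlated across genes at 0.483, 0.681 and 0.541 between libraries of the same replicate number, and the numbers were treated as pairing the libraries. Libraries of the same number also share a lane and a list length, so these correlations cannot show a biological pairing. Alternatives changed the merging, cutting, distance, scale, filter and libraries used.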

Additional observations from a re-analysis of the deposited data

Results flagged for a closer look

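A library standing apart from the other 3 of its group was found in 9 of 34 groups of 4 LPSx1 values that were not all equal. The rule gives about 1 in 20 by chance for continuous values, a rate that does not hold for small peak numbers. The share of distal peaks with an NF-kB match was 11.05% in the LPSx1 list of replicate 7 and 9.82%, 9.91% and 9.95% in the others. The other 8 are peak numbers of genes in which the other 3 LPSx1 libraries were equal, so that a difference of 1 peak is enough. They are AI464131 with 0 peaks in replicate 1 against 1, Il12a with 2 in replicate 6 against 1, and Smu1 and Nfkbib with 2 in replicate 4 against 1. Peli2 held 2 in replicate 1 against 4, Uprt 1 in replicate 1 against 2, Abca8a 3 in replicate 6 against 2, and Zbtb11 3 in replicate 4 against 2.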

How the results depend on the processing

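Peak lists hold no read counts, so depth could be judged only by list length, and with 3 and 4 kept libraries per schedule a difference of about 1 peak per gene did not pass adjustment. The number of peaks per list turned to 0.128 in log2 over the 7 libraries with at least 5000 peaks, and leaving out each replicate gave -1.32 to 0.0447. Gained and lost regions numbered 94 and 64 with the 7 lists cut to 24734 peaks, 169 and 27 at full length, 9 and 21 without merging, and lost regions 6 in the stronger 50% of each list. Leaving out each replicate gave 47 to 285 gained and 25 to 168 lost regions, counts that could not fall because fewer lists loosen both rules. Leaving out each replicate gave 0 to 2 genes called between the schedules, and 0 to 2 for the strain difference. The genes called without replicate 1 (2 genes) or replicate 4 (1 gene) had a residual spread of 0. With the 7 lists alone 173 genes were called (86 higher, 87 lower), all with a residual spread of 0. Without the lists with most peaks in duplicate 29 were called (9 higher, 20 lower), 28 of them with a residual spread of 0 and with 1 LPSx2 library left. The strain difference was called in 1 gene in the stronger 50% of each list and in 1 within 25 kb, and in 33 (12 higher in C57BL6/J, 21 lower) without the lists with most peaks in duplicate, an alternative chosen after seeing the data, all 33 with a residual spread of 0. The region rank test called 2 regions on the log2(percentile rank + 1) scale, and 0 to 23 when a replicate was left out, the 23 (22 higher, 1 lower) without replicate 7. The fit with the replicate number as a block called 0 genes and 0 regions and changed no call, and swapping schedules within pairs left the RUNX difference at 0.407 percentage points (permutation adjusted p = 0.55). The cause of these shifts was not tested.

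In the named genes and motif shares, none of which passed, 71 of the values under an alternative changed sign and 992 kept sign and call. With merged lists at full length the sign turned for NF-kB share at -0.103, STAT share at -0.0221, Mfsd7a at -0.667, Pole4 at -0.583, Cd38 at -0.333, Zyx at -0.271, Il1b at -2.4, Fpr2 at -0.312, Fosl2 at 0.542, Bach1 at -0.708, Cebpb at -1.17, Pfkfb3 at -0.396, Pparg at -1.56, Pde4d at -6.44, Csf3r at -0.542, Gfi1 at -0.167 and Pdgfrb at -0.0208. Without merging the sign turned for AP-1 share at 0.445, PU.1 share at 0.175 and NRF2 share at 0.273. In the stronger 50% of each list the sign turned for NF-kB share at -0.0177, Pole4 at -0.0208, Acot7 at -0.417, Ccl2 at 0.146, Lyz2 at 0.0833, Tnip1 at -0.521, Bach1 at -0.0417, Acod1 at -0.562, Slc7a11 at 1.06, Cd86 at -0.292, Ptgs2 at -0.0625 and Pde4d at -0.708. Without replicate 4 the sign turned for NRF2 share at 0.0763, Il1b at -0.125, Fpr2 at -0.0417, Cebpb at -0.0417, Acod1 at -0.0833 and Cd2 at -0.0833. Without replicate 7 the sign turned for NF-kB share at -0.203, C/EBP share at -0.779, NRF2 share at 0.00667, Pde4d at -0.208 and Gfi1 at -0.0417. Over all peaks the sign turned for AP-1 share at 0.484, NF-kB share at -0.0950 and PU.1 share at 0.0400. Without merging, for genes the sign turned for Il1b at -1.27, Fpr2 at -0.0833, Acod1 at -0.0417, Slc7a11 at 0.646, Pparg at -0.625 and Cd86 at -0.167. For peaks within 25 kb the sign turned for Tet2 at -0.208 and Blnk at 0.0417. For distal peaks only the sign turned for Irak4 at 0.0417. On the log2(peak number + 1) scale the sign turned for Il1b at -0.247. Without replicate 1 the sign turned for Ywhaz at 0.0833. With the 7 lists alone, cut to 24734 peaks the sign turned for Uprt at 0.333, Usp25 at 0.333, Il1b at -3.33, Fosl2 at 0.667, Acod1 at -0.667 and Flt3 at 0.333. Without the lists with most peaks in duplicate the sign turned for Il1b at -3.6, Fpr2 at -0.673, Tnip1 at -0.0385, Cebpb at -2.42, Acod1 at -0.865, Ywhaz at 0.231, Csf3r at -0.269 and Tcf4 at -0.288. In the 7 lists alone AI464131 (1.00), Nfkbib (-1), Cox5a (-1) and Tcf4 (2.00) were called, as was Il12a (2.00) without the lists with most peaks in duplicate. Over the replicates left out in turn the ranges were Acod1 -0.0833 to 3.08, C/EBP share -0.779 to 0.438, Cd2 -0.0833 to 0.333, Cebpb -0.0417 to 4.42, Fpr2 -0.0417 to 1.29, Gfi1 -0.0417 to 0.667, Il1b -0.125 to 4.75, NF-kB share -0.203 to 0.43, NRF2 share -0.457 to 0.0763, Pde4d -0.208 to 2.67 and Ywhaz -1.04 to 0.0833.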
